A study of Mus musculus with 12 samples.

Results

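Mature B cells of the bone marrow were compared between old and young wild-type C57BL/6 mice. The old group held the 3 libraries of mice aged 98, 99 and 100 weeks, and the young group the 3 libraries of mice aged 9, 10 and 11 weeks. The libraries were chosen by their genotype and age labels and make up 6 of the 12 RNA sequencing libraries of the study. Both groups were wild type, with no transgene or treatment in the labels, and their cells had been isolated by flow cytometry as high for B220, positive for IgM and negative for CD93. Old and young libraries with the same replicate number share a collection date, so that each age comparison is made of 3 date pairs. The other 6 libraries came from mice of 10 weeks that lack Bak1 and either carry a loxP-flanked but intact Bax gene (Bak-/- Baxfl/fl) or have Bax deleted (Bak-/- BaxD/D). They entered the model only to estimate the spread and, at the end, as a second contrast. The design text calls the libraries of a group biological replicates. Whether a library came from 1 mouse or a pool was not given in the sources used here.

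Mature B cells recirculate between blood, spleen, lymph nodes and the marrow. Most are follicular cells, which carry IgM and IgD, respond to antigen and survive on the cytokine BAFF. In old mice fewer new B cells leave the marrow, and antigen-experienced cells take a larger share of the pool, among them age-associated B cells, which are known for the transcription factor T-bet and the integrin CD11c. B220 is a form of CD45, encoded by Ptprc, and CD93 marks immature B cells that have just left the precursor stages.

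Total counts of the 6 libraries ran from 13474162 to 23539764. Levels are given below as CPM (a gene's counts scaled to a common library size) after TMM normalisation, in the order of replicates 1, 2 and 3. Replicates of a group correlated at 0.929 to 0.981 in log CPM, and each pair of replicates differed by more than counting noise (chi-square per gene from 22.1 to 248.6, where counting alone gives about 1). The pair collected on 24 March, replicate 1 of each group, stood apart from the April pairs, and its labels give 2006 as the year where the others give 2016. The B cell genes were present at high levels in all 6 libraries. Ptprc was at 1489, 2178 and 2163 CPM in young and 1308, 1835 and 2098 in old cells, and Ighm, the IgM heavy chain, at 5152, 7563 and 9536 in young and 3310, 9010 and 7915 CPM in old cells. None of the 12 B cell markers passed the threshold in either direction. Their summed level ran from 27400 to 33950 CPM in young and from 19520 to 34310 in old libraries, so the groups overlapped.

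Markers of other cell types were low beside the B cell markers, and several of their lists differed with age. T cell markers summed to 31.4 to 35.3 CPM in old and 3.73 to 8.96 in young libraries, and 9 of 13 rose, where 7.89% of all genes tested rose and 7.03% fell (adjusted p under 0.05, as described below). NK cell markers summed to 12.3 to 19.6 CPM in old and 2.46 to 6.33 in young libraries, and 6 of 7 rose. Monocyte and macrophage markers overlapped between the groups, at 67.0 to 254 CPM in old and 31.7 to 152 in young libraries, and 8 of 10 rose. Conventional dendritic cell markers were at 19.0 to 26.7 CPM against 3.21 to 4.88, and 3 of 4 rose. Plasmacytoid dendritic cell markers, a list that includes Tcf4 and Bst2, were at 307 to 399 CPM against 236 to 278, and 3 of 5 rose. Which cells these transcripts came from was not tested. The sum of the bone marrow stromal markers ran from 18.1 to 149.9 CPM in old and from 2.63 to 13.7 in young libraries, and 5 of 6 rose. These counts cover only markers that passed the filter on low counts. The lists held 9 stromal, 8 NK cell, 12 monocyte and macrophage markers and 7 for each dendritic cell type. A marker seen almost only in old libraries can pass this filter and could then be called only as a rise. Granulocyte markers, of which 1 of 10 rose, and erythroid markers, of which 0 of 7 passed, overlapped widely and were highest in replicate 3 of both groups. Without the block, where 1.7% of all genes tested rose, the counts of rises were 3 of 13 for T cells, 2 of 7 for NK cells, 1 of 10 for monocytes and macrophages, 1 of 4 and 1 of 5 for the dendritic cell lists, and 1 of 6 for stroma. Without the 24 March pair they were 6, 2, 7, 2, 1 and 5 in the same order, where 4.38% of all genes tested rose. Of 9 plasma cell, 2 endothelial, 4 blood progenitor markers and 1 megakaryocyte marker tested, 0 passed. No marker of these lists was at 0 in all 6 libraries. Their part in the results below was not tested. In bulk samples fewer cells of a type and less RNA per cell cannot be told apart.

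**Figure D1:**
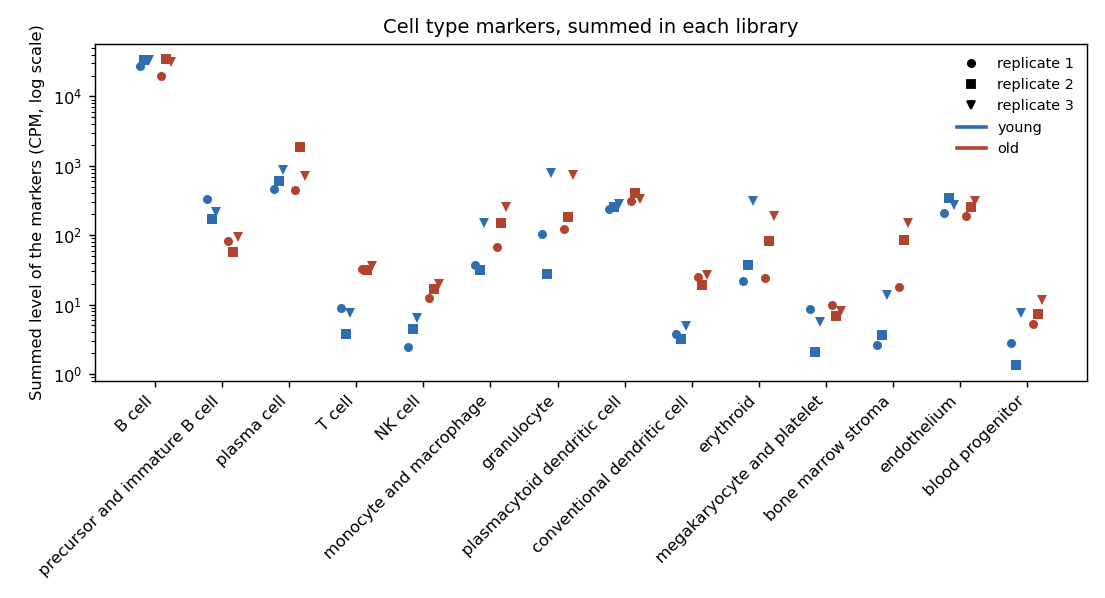
Summed level in CPM (y axis, log scale) of each cell type's marker list (x axis) in the 6 wild-type libraries. Circles, squares and triangles are replicates 1, 2 and 3, blue young and red old. B cell markers overlap between the groups, T, NK, dendritic and stromal markers are higher in each old library than in each young one, and precursor and immature B cell markers are lower in each old library.

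With the collection date as a block, 2028 of 13592 genes tested (14.9%) passed an adjusted p of 0.05 between old and young cells (edgeR quasi-likelihood test with Benjamini-Hochberg adjustment). Of these 1073 (7.89%) were higher and 955 (7.03%) lower in old cells. The sign was the same in each of the 3 date pairs for 955 of the lower and 1071 of the 1073 higher genes, against 47.99% of all genes tested. The blocked fit rests on these same date differences, so agreement among the called genes follows largely from the selection. It is no separate evidence. The block decides how many genes are called. Without it 273 genes passed (2.01%), of which 231 (1.7%) were higher and 42 (0.309%) lower, so that 84.6% of the calls were higher instead of 52.9%. Of these 273 genes, 266 were among the 2028 with the same sign. Without the 24 March pair 925 genes passed, of which 602 (4.38%) were higher and 323 (2.35%) lower. Without a single library the number was 921 (old replicate 1), 964 (young replicate 1), 1120 (old replicate 2), 1143 (young replicate 2), 1738 (old replicate 3) and 1789 (young replicate 3). There were 342 higher and 234 lower genes that passed in each of these 6 fits. The levels of old and young libraries did not overlap, whatever the date, for 2191 genes (16.1%), including 716 of the higher and 468 of the lower genes.

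The rises and falls differed in size and in the level of the genes concerned. Genes that rose did so by a median log2 fold change of 1.33, and 650 of 1073 rose by at least 1 on the log2 scale, 375 by at least 2 and 191 by at least 3. Genes that fell did so by a median of 0.48 on the log2 scale, and 128 of 955 fell by at least 1, 37 by at least 2 and 8 by at least 3. The median over all genes tested was -0.02. Rises were concentrated among weakly expressed genes. Among 1197 genes with a mean under 1 CPM, 114 rose and 17 fell, and among 3410 genes of 1 to 10 CPM 449 rose and 97 fell. The counts were nearly equal among 6454 genes of 10 to 100 CPM, with 438 higher and 440 lower. Of 2531 genes over 100 CPM, 72 (2.84%) rose and 401 (15.8%) fell. Per kilobase of transcript, the median level was 2.002 CPM for genes that rose, 14.9 for genes that fell and 7.03 for all genes tested. Summed over their members, the higher genes took 40980 to 45100 CPM in the old and 26010 to 29270 in the young libraries, and the lower genes 113300 to 121000 CPM in the old and 149900 to 187500 in the young.

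**Figure D2:**
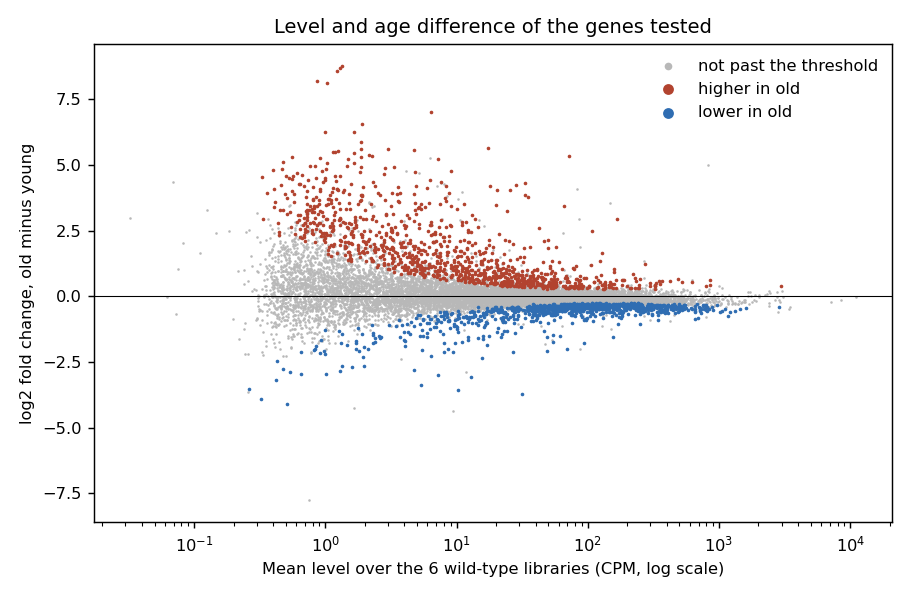
Mean level over the 6 wild-type libraries in CPM (x axis, log scale) against the log2 fold change, old minus young (y axis), for the 13592 genes tested. Red points are the 1073 genes called higher in old cells, blue points the 955 called lower and grey points the rest. Large rises lie at low levels, while most genes lower in old cells lie at high levels and close to 0. The fold of a gene with 0 reads in a group depends on the fit.

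The 12 largest rises among genes with a mean of at least 10 CPM were those of Wipf3, Fgl2, Erdr1, Nt5e, Igfbp5, Nrp2, Cxcl12, Lilrb4a, Plcd3, App, Ptprv and Rhobtb1. In each of these 12 the 3 old libraries lay above the 3 young ones, which follows largely from choosing them by their rise. Over all genes tested the groups did not overlap for 16.1%. Nrp2 (chromosome 1, 62703317 to 62818692, GRCm38.p6), a neuropilin that binds semaphorins and VEGF, had 1.07, 3.25 and 2.77 CPM in young and 28.2, 51.3 and 34.5 CPM in old cells. The lowest old library was thus far above the highest young one, and the log2 fold change was 4.03 ± 0.30 (adjusted p = 4.87e-05). Ptprv (chromosome 1, 135108498 to 135132575), a receptor-type tyrosine phosphatase known from the p53 response of the mouse, had 20.8, 8.01 and 5.34 CPM in young and 208, 70.3 and 83.7 in old cells. Replicate 1 was the highest in both groups, all old libraries lay above all young ones, and the log2 fold change was 3.45 ± 0.17 (adjusted p = 1.66e-06). Plcd3, a phospholipase C that releases inositol trisphosphate, had 2.79, 1.37 and 1.52 in young and 25.4, 22.1 and 15.5 CPM in old cells. Its rise was 3.52 ± 0.36 (adjusted p = 0.00027), with young libraries all under the old. Lilrb4a, an inhibitory receptor of the leukocyte immunoglobulin-like family, had 8.96, 2.06 and 4.55 CPM in young and 93.5, 56.9 and 45.4 in old cells (log2 fold change 3.79 ± 0.45, adjusted p = 0.00513). Its near-identical neighbour Lilrb4b makes the division of reads between the pair uncertain. Rhobtb1 had 1.56, 1.37 and 2.51 in young and 21.1, 22.7 and 11.7 CPM in old cells (log2 fold change 3.33 ± 0.45, adjusted p = 0.00231). Erdr1, at 8.71, 1.93 and 1.19 in young and 85.8, 57.2 and 44.4 CPM in old cells, rose by 4.32 ± 0.38 (adjusted p = 0.000781). It lies in the pseudoautosomal region, where repeats make read assignment uncertain.

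Several large rises varied more between libraries. Cxcl12, the chemokine that holds B cells in the marrow and is made mainly by stromal cells, had 1.73, 2.14 and 9.5 CPM in young and 12.7, 63.7 and 109 in old cells. Old replicate 1 was close to young replicate 3, and the rise of 3.86 ± 0.51 (adjusted p = 0.00724) left no overlap. Cxcl12 makes up most of the stromal marker sum. Without it the other 8 stromal markers summed to 0.904, 1.46 and 4.15 CPM in young and 5.43, 22.7 and 41.0 CPM in old libraries, so that replicate 1 was the lowest and replicate 3 the highest of each group, as for Cxcl12. Igfbp5, a secreted binder of insulin-like growth factors, had the same order in the old libraries, with 1.48, 0.6 and 3.3 CPM in young and 7.05, 37.9 and 57.6 in old cells (log2 fold change 4.21 ± 0.88, adjusted p = 0.0385). Its call was lost without old or young replicate 2 or 3 (highest adjusted p = 0.143). Nt5e encodes CD73, the ectoenzyme that makes adenosine from AMP, and had 2.14, 1.97 and 3.96 in young and 81.2, 52.2 and 29.3 CPM in old cells. The groups were far apart, and the rise of 4.23 ± 0.68 (adjusted p = 0.0217) was lost without old or young replicate 1 or 2 (highest 0.111). Fgl2, a secreted and membrane-bound immunoregulatory protein of the fibrinogen family, had 0.904, 2.57 and 7.39 CPM in young and 78.8, 233 and 107 in old cells. Old replicate 2 was the highest, and the call of the rise, 5.36 ± 1.01 (adjusted p = 0.0392), was lost without any 1 of the 6 libraries (highest 0.147). The calls of Wipf3, a partner of the actin regulator WASP (log2 fold change 5.66 ± 1.21, adjusted p = 0.0472), and of App, the amyloid precursor protein (3.48 ± 0.60, adjusted p = 0.0184), were also lost without single libraries. For Wipf3 these were replicates 1 and 2 of either age (highest 0.173), and for App old replicate 1 and young replicates 1 and 2 (highest 0.0979).

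**Figure D3:**
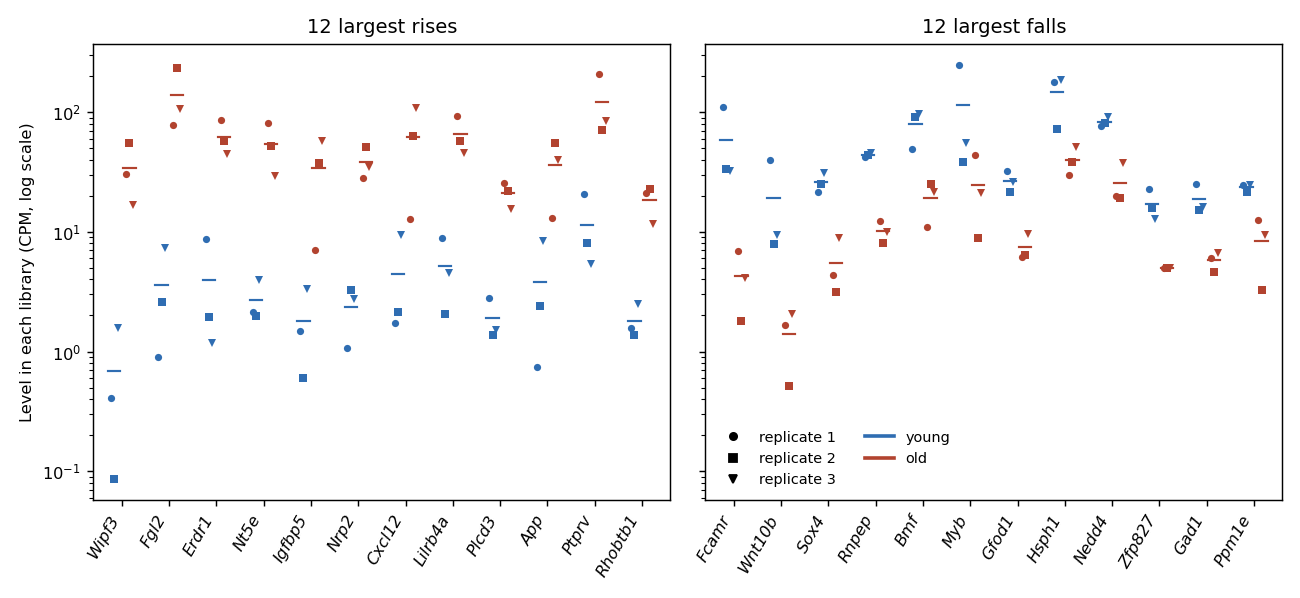
Level in CPM (y axis, log scale) of the 12 genes with the largest rise and the 12 with the largest fall among genes with a mean of at least 10 CPM, in each wild-type library. Circles, squares and triangles are replicates 1, 2 and 3, blue young and red old, and bars are the means of 3 libraries. Old and young points do not overlap for 23 of these 24 genes, the exception being Myb, against 16.1% of all genes tested. The genes were chosen by the size of their change, so this follows largely from the selection.

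The 12 largest falls were those of Fcamr, Wnt10b, Sox4, Rnpep, Bmf, Myb, Gfod1, Hsph1, Nedd4, Zfp827, Gad1 and Ppm1e. Rnpep (chromosome 1, 135262699 to 135284423), an aminopeptidase, had 42, 44.1 and 45.9 CPM in young and 12.4, 8.09 and 10 in old cells, with little spread within either group. It was 4.38-fold lower, and the fall of 2.13 ± 0.13 on the log2 scale (adjusted p = 6.54e-06) also passed without the block (0.000421). Fcamr, a receptor for the Fc parts of IgA and IgM, had 109.5, 33.4 and 32.2 CPM in young and 6.9, 1.79 and 4.14 in old cells. The fall of 3.71 ± 0.22 on the log2 scale (adjusted p = 8.9e-06) left no overlap between the groups, with young replicate 1 the highest by far. Bmf, a BH3-only protein that binds and blocks BCL-2 family survival proteins, was at 49.1, 91.9 and 96.7 CPM in young and 10.9, 25.1 and 21.4 in old cells. The fall of 2.07 ± 0.09 on the log2 scale had the smallest adjusted p of the 12 (8.35e-07), and replicate 1 was the lowest of both groups. Gfod1, which contains an oxidoreductase-like domain, had 32, 21.6 and 25.9 in young and 6.17, 6.45 and 9.62 CPM in old cells and fell by 1.84 ± 0.20 on the log2 scale (adjusted p = 0.00027). Gad1, best known as the enzyme that makes the neurotransmitter GABA from glutamate, had 25.3, 15.1 and 16.2 in young and 6.07, 4.66 and 6.67 CPM in old cells and fell by 1.68 ± 0.18 (adjusted p = 0.000266). The zinc finger gene Zfp827 was at 22.8, 15.8 and 12.7 CPM in young cells and nearly equal in the old libraries, at 4.99, 4.96 and 4.95 (fell by 1.74 ± 0.18, adjusted p = 0.000252).

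Nedd4, a ubiquitin ligase, fell from 76.6, 80.6 and 90.4 to 20, 19.1 and 37.4 CPM, a decrease of 3.38-fold (adjusted p = 0.000623). Ppm1e, a protein phosphatase, was at 24.7, 21.7 and 24.4 in young and 12.6, 3.28 and 9.41 CPM in old cells, and its fall of 1.64 ± 0.29 on the log2 scale passed with the block (adjusted p = 0.00939) but not without it (0.134). Hsph1, a heat shock protein of the HSP110 family, was at 180.2, 72.2 and 186 in young and 29.8, 38.3 and 50.6 CPM in old cells. Young replicate 2 lay well below the other young libraries, and the call (fell by 1.80 ± 0.34, adjusted p = 0.0275) was lost without old or young replicate 3 (highest 0.123) and without the block (0.0749). Sox4 and Myb are transcription factors of B cell precursors. Sox4 was at 21.4, 25.2 and 31 CPM in young and 4.36, 3.12 and 8.92 in old cells, with no overlap (fell by 2.33 ± 0.27, adjusted p = 0.00126). Myb was at 248.9, 38.2 and 55.6 in young and 43.5, 8.96 and 21 CPM in old cells. Young replicate 1 was the highest and old replicate 1 lay between the other young libraries, so that the groups overlapped although each pair fell (by 2.02 ± 0.23, adjusted p = 0.00154, and 0.154 without the block).

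Of the 12 precursor and immature B cell markers, 8 fell, 0 rose and 4 did not pass, where 7.03% of all genes tested fell. Their median log2 fold change was -1.72. The sum of this list was 331, 172 and 217 CPM in young and 81.1, 56.2 and 94.5 in old libraries. Every old library was below every young one. Cd93, the protein sorted against, was transcribed at 29.3, 31.8 and 36.1 CPM in young and 13.7, 9.52 and 13 in old cells, and fell by 1.44 ± 0.14 on the log2 scale (adjusted p = 0.000187). Lef1, a nuclear partner of beta-catenin in precursors, was at 4.6, 7.49 and 6.99 in young and 1.42, 1.23 and 2.63 CPM in old cells and fell by 1.89 ± 0.29 (adjusted p = 0.00217). Rag1, the recombinase of antigen receptor genes, was at 3.78, 5.35 and 20.2 in young and 0.979, 0.154 and 1.51 CPM in old cells. Young replicate 3 was the highest, and the call (adjusted p = 0.0249) was lost without replicate 2 or 3 of either age (highest 0.156) and without the block (0.0571). Without the 24 March pair 7 of the 12 fell, where 2.35% of all genes did, and without the block 3, where 0.309% did.

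Ranked by the change in CPM rather than in fold, the largest gains were those of H2-K1, Ctse, H2-Q4, Gimap4, Snn and Psap. H2-K1 and H2-Q4 are MHC class I heavy chains that share long stretches of sequence, so their reads may be divided wrongly. H2-K1 had 3986, 2011 and 1905 CPM in young and 4330, 2907 and 2710 in old cells, and H2-Q4 had 1308, 418 and 397 in young and 1562, 738 and 672 CPM in old cells. In both genes replicate 1 was the highest of each group and the groups overlapped, while each pair rose (log2 fold change 0.39 ± 0.11, adjusted p = 0.04, and 0.61 ± 0.12, 0.00643). Ctse, the endosomal protease cathepsin E, was the only 1 of the 6 whose groups did not overlap, with 21.7, 36.1 and 52.8 CPM in young and 119, 407 and 364 in old cells (7.61-fold higher, adjusted p = 0.00126). Gimap4, a GTPase of the Gimap family, had 596, 475 and 415 in young and 1043, 542 and 666 CPM in old cells (1.47-fold, adjusted p = 0.0186). Psap, the precursor of lysosomal saposins (1.32-fold, adjusted p = 0.0303), and Snn, stannin (1.34-fold, adjusted p = 0.0111), rose as well. Without the block 5 of these 6 genes did not pass (adjusted p from 0.429 to 0.849), the exception being Ctse (0.00841). The calls were lost without replicate 2 or 3 of either age for H2-K1 (highest 0.177) and Psap (0.155), without replicate 1 or 3 for Gimap4 (0.126) and without old replicate 1 for Snn (0.0522).

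The largest losses in CPM were those of Arhgap45, Map4k2, Fcer2a, Helz2, Shisa5 and Ets1. Fcer2a encodes CD23, the low-affinity IgE receptor of follicular B cells, and was at 1715, 1473 and 1166 CPM in young and 1067, 664 and 897 in old cells. All old libraries lay below all young ones, and the fall was 1.67-fold (adjusted p = 0.00443, and 0.222 without the block). Ets1, a transcription factor that restrains plasma cell formation, was at 873, 1995 and 1759 in young and 515, 1427 and 1329 CPM in old cells. Its replicate 1 was the lowest of each group, the groups overlapped, and each pair fell (by 0.55 ± 0.10 on the log2 scale, adjusted p = 0.00613, and 0.771 without the block). Arhgap45 was at 5838, 2131 and 2089 in young and 3476, 1699 and 1852 CPM in old cells (1.33-fold lower, adjusted p = 0.0392). Map4k2, a kinase upstream of JNK (1.51-fold, adjusted p = 0.0246), Helz2, a nuclear receptor co-activator (1.36-fold, 0.0385), and Shisa5, a membrane protein known from apoptosis (1.39-fold, 0.0141), also fell. The calls of these 4 genes were lost without replicate 1 or 2 of either age, with a highest adjusted p of 0.189 for Arhgap45, 0.132 for Map4k2, 0.175 for Helz2 and 0.0768 for Shisa5, and none of the 6 passed without the block (adjusted p from 0.222 to 0.818).

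Immunity-related and guanylate-binding GTPases, which interferons induce and which attack the vacuoles of intracellular pathogens, had the largest share of rises among the gene families counted here. Of 15 tested, 10 rose and 0 fell, with a median log2 fold change of 1.02. The share of genes called higher over all genes tested was 7.89%. Without the 24 March pair 10 of 15 rose, where 4.38% of all genes did, and without the block 7, where 1.7% did. The members shown here were chosen after their values were seen, except Gbp8, Gbp6, Gbp7 and Igtp. RefSeq promoters (GRCm38.p6, the 250 bases before the transcript start) were held for 9 of the 15 members. The promoters of 4 genes that rose (Gbp7, Igtp, Irgm1, Tgtp2) and of 1 that did not pass (Gbp5) are shown because each carries the letters GAAANNGAAA, the core of an interferon-stimulated response element, on either strand. The match is in capitals.

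Gbp7: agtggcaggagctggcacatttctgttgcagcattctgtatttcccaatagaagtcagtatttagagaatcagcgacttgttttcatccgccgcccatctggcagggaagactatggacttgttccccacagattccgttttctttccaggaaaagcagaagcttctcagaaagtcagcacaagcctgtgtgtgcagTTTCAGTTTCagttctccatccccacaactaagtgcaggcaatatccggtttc

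Igtp: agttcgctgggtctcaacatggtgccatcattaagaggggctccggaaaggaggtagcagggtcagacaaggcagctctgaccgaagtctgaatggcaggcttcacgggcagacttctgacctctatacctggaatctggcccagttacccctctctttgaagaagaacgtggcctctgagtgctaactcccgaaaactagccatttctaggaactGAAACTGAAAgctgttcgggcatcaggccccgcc

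Irgm1: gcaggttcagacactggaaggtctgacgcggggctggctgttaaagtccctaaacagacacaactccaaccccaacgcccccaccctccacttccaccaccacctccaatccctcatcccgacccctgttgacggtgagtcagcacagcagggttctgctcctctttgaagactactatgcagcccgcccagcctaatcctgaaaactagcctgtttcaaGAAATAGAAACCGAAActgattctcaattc

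Tgtp2: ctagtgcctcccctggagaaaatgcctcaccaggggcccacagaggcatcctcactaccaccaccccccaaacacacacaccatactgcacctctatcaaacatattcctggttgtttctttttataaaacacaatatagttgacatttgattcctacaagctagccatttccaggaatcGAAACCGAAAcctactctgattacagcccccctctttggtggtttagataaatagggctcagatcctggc

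Gbp5: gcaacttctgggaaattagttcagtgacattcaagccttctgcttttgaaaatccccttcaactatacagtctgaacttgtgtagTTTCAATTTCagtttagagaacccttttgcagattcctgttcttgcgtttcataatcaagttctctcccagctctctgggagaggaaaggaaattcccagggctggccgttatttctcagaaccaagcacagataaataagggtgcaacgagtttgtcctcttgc

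The promoters span chr3:142530086-142530335 (plus strand) for Gbp7, chr11:58199306-58199555 (plus) for Igtp, chr11:48871421-48871670 (minus) for Irgm1, chr11:49064213-49064462 (minus) for Tgtp2 and chr3:142496684-142496933 (plus) for Gbp5. The match nearest to the start ended at position -43 in Gbp7, -24 in Igtp, -14 in Irgm1, -60 in Tgtp2 and -155 in Gbp5, counted from the transcript start. All 6 members that rose and have an entry hold the letters, and so do all 3 that did not pass. The letters therefore did not separate members that rose from members that did not pass. Of all 27025 RefSeq promoters, 936 (3.46%) hold them, as do 37 of 820 promoters of genes called higher (4.51%) and 21 of 739 of genes called lower (2.84%). The letters GGTGTGA, bound by T-box factors such as T-bet, occur on either strand in 3.84% of all promoters, in 3.41% of those of genes called higher and in 0 of the 9 of the family. A match describes the letters in these windows and is not a bound site.

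Gbp7 was at 37.6, 33.9 and 26.1 CPM in young and 74.4, 68.5 and 69.9 in old cells. Each old library was above each young one, and it rose 2.2-fold (adjusted p = 0.000266). Igtp, at 21.3, 30.7 and 24.7 in young and 43.1, 53.6 and 58.8 CPM in old cells, rose 2.03-fold (adjusted p = 0.0012), and Tgtp2, at 5.26, 7.92 and 6.99 in young and 21.9, 18.4 and 22.7 CPM in old cells, rose 3.12-fold (adjusted p = 0.00198). Irgm1, a regulator of the other family members, was at 71.6, 67.9 and 64.1 in young and 108, 95.3 and 106 CPM in old cells and rose 1.51-fold (adjusted p = 0.00202, and 0.0556 without the block). Its homologue Irgm2 had 30, 33.7 and 29.5 in young and 56.3, 54.2 and 61.2 CPM in old cells (1.84-fold, adjusted p = 0.00248, and 0.126 without the block). The groups did not overlap in any of these 5 genes, nor in 716 of all 1073 genes called higher and 16.1% of all genes tested. Iigp1 was almost silent in young cells, with 0.657, 0.428 and 1.12 CPM, and had 9.93, 19.1 and 14.4 CPM in old cells (log2 fold change 4.35 ± 0.61, adjusted p = 0.00306). Gbp8, at 7.48, 2.4 and 2.84 in young and 31.1, 16.4 and 16.6 CPM in old cells, and Gbp6, at 3.2, 2.01 and 1.91 in young and 14.8, 18.1 and 13.1 CPM in old cells, also rose (log2 fold change 2.44 ± 0.24, adjusted p = 0.000158, and 2.72 ± 0.27, 0.000187). Tgtp1, a near-identical copy of Tgtp2, rose 4.01-fold (adjusted p = 0.00516), but reads of this pair may be divided wrongly, as may those of the Gbp cluster on chromosome 5. Gbp4 had 188, 108 and 84.9 in young and 218, 128 and 147 CPM in old cells with overlapping groups, and its call (adjusted p = 0.0296) was lost without replicate 3 of either age (highest 0.162) and without the block (0.766). Gbp2, Gbp3, Gbp5, Gbp9 and Gbp10 did not pass (adjusted p from 0.098 to 0.968). Gbp5, for one, was at 43.9, 55.1 and 48.3 in young and 39.3, 53.2 and 67.7 CPM in old cells.

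**Figure D4:**
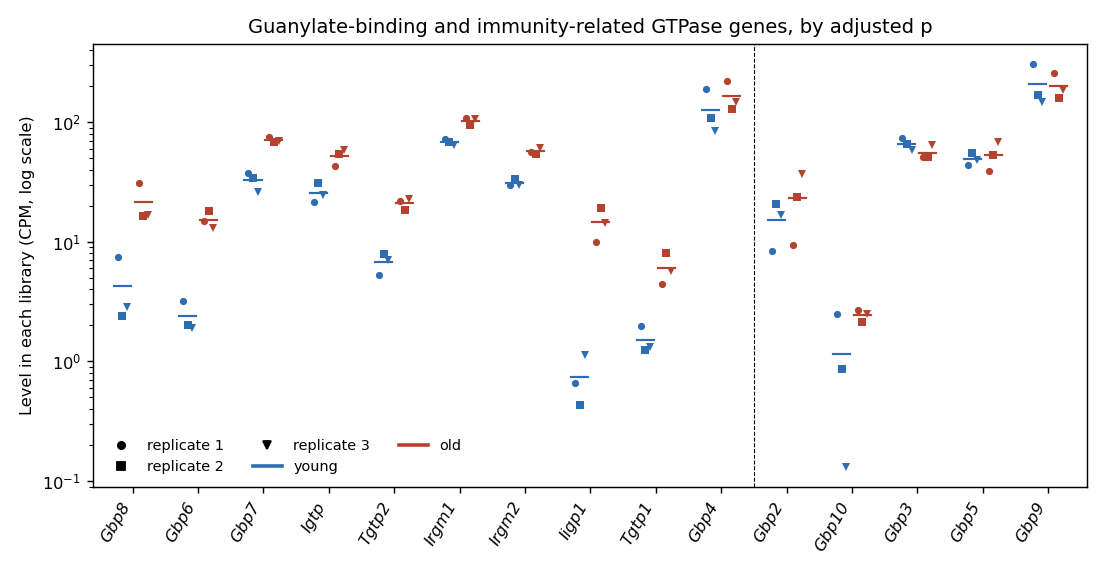
Level in CPM (y axis, log scale) of the 15 guanylate-binding and immunity-related GTPase genes tested, ordered by adjusted p, in each wild-type library. Circles, squares and triangles are replicates 1, 2 and 3, blue young and red old, and bars are the means of 3 libraries. The 10 genes left of the dashed line rose, and old and young points overlap in 1 of them, Gbp4. For comparison, the points do not overlap for 716 of all 1073 genes called higher and for 16.1% of all genes tested.

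Innate sensors detect microbial products. Of 31 such sensors and adaptors 7 rose and 0 fell, with a median of 0.23 (1 rose without the block and 3 without the 24 March pair), where 7.89% of all genes tested rose. Tlr12, a Toll-like receptor, had 7.39, 7.11 and 7.12 CPM in young cells, hardly different between libraries, and 30, 23.3 and 15 in old cells (3.04-fold, adjusted p = 0.000493). Nod2, a sensor of bacterial peptidoglycan, had 1.4, 2.96 and 3.36 in young and 5.09, 9.26 and 6.56 CPM in old cells (2.76-fold, adjusted p = 0.00396, and 0.0629 without the block). Among 35 proteasome and chaperone genes 3 rose and 4 fell, near the shares over all genes tested of 7.89% and 7.03%, and 0 passed without the block. Psmb9, an interferon-inducible subunit of the immunoproteasome, was at 105, 88.6 and 81.4 CPM in young and 180.0, 164.5 and 142 in old cells, with no overlap (1.77-fold, adjusted p = 0.000223, and 0.0709 without the block). Hspa8, a constitutive HSP70 chaperone, was at 163.7, 162 and 367 in young and 63, 121 and 139 CPM in old cells. It fell 2.1-fold (adjusted p = 0.00677), and this call was lost without old or young replicate 1 (highest 0.0733) and without the block (0.184).

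Of 16 genes known to be high in age-associated B cells, 11 rose and 0 fell, with a median log2 fold change of 2.13 (9 rose without the block and 9 without the 24 March pair). Over all genes tested 7.89% rose, 1.7% without the block and 4.38% without the 24 March pair. The list was chosen with earlier results of these data known, so its direction is no independent evidence. Zbtb32, a transcriptional repressor, had 19.1, 7.19 and 9.5 CPM in young and 121, 47.4 and 52.2 in old cells. Replicate 1 was the highest in each group, and the rise was 6.14-fold (adjusted p = 3.75e-06). Cd9, a tetraspanin, had 3.12, 6.42 and 11.9 CPM in young and 13.1, 21.3 and 17.8 in old cells, with no overlap (2.67-fold, adjusted p = 0.00488, and 0.135 without the block). Itgax, the CD11c chain, had 0.411, 0.343 and 1.78 CPM in young and 24.7, 13.5 and 8.76 CPM in old cells, with no overlap (log2 fold change 4.22 ± 0.67, adjusted p = 0.00685, and 0.01 without the block). Tbx21, which encodes T-bet, did not pass, with 0.986, 3.98 and 6.2 CPM in young and 21, 39.3 and 18.1 in old cells (log2 fold change 2.90 ± 0.76, adjusted p = 0.0697). Its old libraries were all above its young ones, and it passed without the block (0.0495). Cxcr3, a chemokine receptor that T-bet induces, did not pass either, at 0, 1.11 and 2.7 in young and 9.74, 15.8 and 21.1 CPM in old cells (adjusted p = 0.0547). Cd9, Tbx21 and Cxcr3 were named after their values were seen. Among 10 follicular genes known to be low in such cells, 8 fell and 0 rose, with a median of -0.49. Of these Cd55 alone passed without the block, and 5 fell without the 24 March pair. Falls over all genes tested were 7.03%, 0.309% without the block and 2.35% without the 24 March pair. Among all genes over 100 CPM, where Cd55 lies, 15.8% fell with the block. Cd55, which protects cells from complement, was at 795, 873 and 877 CPM in young and 523, 417 and 467 in old cells. The groups were well apart and the fall was 1.81-fold (adjusted p = 0.00073).

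Most lists of surface receptors held more rises than falls. The shares of all genes tested were 7.89% higher and 7.03% lower (1.7% and 0.309% without the block, 4.38% and 2.35% without the 24 March pair). These shares also apply to the lists in the next paragraphs. The counts of each list cover only members that passed the filter on low counts. A member seen almost only in old libraries can pass this filter and could then be called only as a rise. Rises outnumbered falls among all genes of 1 to 10 CPM as well, at 13.2% against 2.84%. Whether the level of the listed genes accounts for their rises was not tested. Among 36 costimulatory, inhibitory and SLAM family genes 10 rose and 1 fell (5 and 0 without the block), with a median of 0.11. Cd200r1, an inhibitory receptor, had 0.246, 0.557 and 1.06 CPM in young and 4.55, 5.68 and 5.38 in old cells (log2 fold change 3.14 ± 0.49, adjusted p = 0.00239). Havcr1 encodes TIM-1, a receptor for phosphatidylserine, and had 0.657, 1.54 and 3.69 in young and 10.5, 17.7 and 12 CPM in old cells (log2 fold change 2.92 ± 0.42, adjusted p = 0.00248, and 0.0885 without the block). Ctla4, an inhibitory receptor best known from T cells, had 1.97, 0.214 and 0.857 in young and 10.8, 6.24 and 5.05 CPM in old cells (log2 fold change 3.10 ± 0.49, adjusted p = 0.0027, and 0.0872 without the block). The groups did not overlap in these 3 genes, nor in 716 of all 1073 genes called higher and 16.1% of all genes tested. The summed T cell markers were 31.4 to 35.3 CPM in the same old libraries and 3.73 to 8.96 in the young, and the part of T cells in these rises was not tested. Of 14 Fc receptors and Fc receptor-like genes 3 rose and 3 fell. Fcgr2b, the inhibitory receptor for IgG, was at 197, 169 and 150.0 in young and 398, 266 and 203 CPM in old cells (1.63-fold, adjusted p = 0.00314, and 0.175 without the block).

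Of 28 chemokine and migration receptors 8 rose and 2 fell, with a median of 0.41 (5 and 0 without the block, 4 and 1 without the 24 March pair). For this and the next lists, the shares over all genes tested were 7.89% higher and 7.03% lower. Gpr55, a lipid receptor, had 1.81, 2.53 and 5.47 CPM in young and 16.8, 33.9 and 22 in old cells, with all old libraries above all young ones (7.78-fold, adjusted p = 0.00207). Among 21 integrin genes 5 rose and 0 fell (2 without the block). Itgb1, the common beta-1 chain, had 32.9, 65.6 and 83.2 in young and 109, 305 and 168 CPM in old cells, and all old libraries were above all young ones (3.15-fold, adjusted p = 0.00711). Its call was lost without old or young replicate 1 (highest 0.0831). Of 21 semaphorin, plexin and neuropilin genes, which guide growing axons and regulate immune cell contacts, 9 rose and 0 fell, with a median of 0.52 (3 without the block, 5 without the 24 March pair). This family held 31 genes before the filter on low counts. Besides Nrp2, the ligand gene Sema5a was at 5.75, 8.27 and 11.9 in young and 14, 26.3 and 17.9 CPM in old cells (2.27-fold, adjusted p = 0.00494, and 0.168 without the block).

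Among 41 cytokine receptor genes 10 rose and 5 fell (3 and 0 without the block, 7 and 0 without the 24 March pair). By comparison 7.89% of all genes tested rose and 7.03% fell. Flt3, a receptor of progenitors and dendritic cells, had 0.411, 0.942 and 1.52 CPM in young and 7.54, 9.47 and 17 in old cells (log2 fold change 3.57 ± 0.33, adjusted p = 0.00014). It is also on the dendritic cell marker list, whose sum separated the groups. Il12rb1, a chain of the IL-12 and IL-23 receptors, had 2.55, 2.18 and 1.71 in young and 9.74, 10.3 and 12 CPM in old cells with no overlap (4.99-fold, adjusted p = 0.000745). Csf2rb, the common beta chain for GM-CSF, IL-3 and IL-5, was at 60.4, 29.5 and 32.9 in young and 85.5, 64.6 and 67.2 CPM in old cells (1.85-fold, adjusted p = 0.00488, and 0.167 without the block). Of 22 TNF receptor genes 5 rose and 0 fell (2 without the block and 2 without the 24 March pair). Fas, the death receptor, had 4.35, 3.34 and 4.95 in young and 22.4, 20 and 13.7 CPM in old cells, all old libraries being above all young ones (4.41-fold, adjusted p = 0.000965).

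Of 26 cytokine and chemokine genes tested 9 rose and 1 fell, with a median of 1.03 (4 and 0 without the block, 7 and 1 without the 24 March pair). The list held 44 genes before the filter on low counts. A gene seen almost only in old libraries can pass this filter and could then be called only as a rise. Shares over all genes tested were 7.89% higher and 7.03% lower. Ccl5, a chemokine of activated lymphocytes, had 0.0822, 0.343 and 0.396 CPM in young and 2.4, 4.4 and 3.44 in old cells (log2 fold change 3.63 ± 0.60, adjusted p = 0.00314). Spp1, osteopontin, had 0.0822, 0.514 and 1.06 in young and 1.17, 7.11 and 11.7 CPM in old cells (log2 fold change 3.62 ± 0.37, adjusted p = 0.000187, and 0.0808 without the block). It was highest in replicate 3 of both groups, as were the summed stromal, monocyte and macrophage, granulocyte and erythroid markers. The part of such cells in its rise was not tested. Tnfsf10, the death ligand TRAIL, was at 5.01, 10.4 and 9.5 in young and 11.5, 20 and 16.7 CPM in old cells (1.97-fold, adjusted p = 0.00278, and 0.184 without the block). The 1 gene that fell was Tgfb1, an inhibitory cytokine. It was at 188, 375 and 373 CPM in young and 114, 263 and 251 in old cells. Replicate 1 was the lowest of each group and each pair fell, by 0.60 ± 0.09 on the log2 scale overall (adjusted p = 0.00147, and 0.594 without the block).

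Transcription factors of the B lineage and of activation divided. Of 62 tested 14 rose and 16 fell, with a median of -0.16 (7 and 2 without the block, 12 and 9 without the 24 March pair). Across all genes tested 7.89% rose and 7.03% fell. Id2, an inhibitor of E proteins, had 2.46, 2.18 and 4.75 CPM in young and 11.4, 11.6 and 12.6 in old cells (3.98-fold, adjusted p = 0.00138). The old libraries were nearly equal and all above the young. Bcl6, the repressor that drives germinal centre cells, was at 95, 139.7 and 149 in young and 57.2, 62.8 and 81.2 CPM in old cells, with no overlap (1.89-fold lower, adjusted p = 0.00106, and 0.13 without the block). Zbtb32 rose and Sox4 fell, as given above.

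The Wnt pathway, in which secreted ligands stabilise beta-catenin, had members that moved in both directions. Of 27 members tested 5 rose and 8 fell (4 and 3 without the block, 4 and 4 without the 24 March pair), where 7.89% of all genes tested rose and 7.03% fell. Both ligand genes among the 4 members with the smallest p fell. Wnt10a was at 12.6, 10.6 and 15 CPM in young and 0.979, 1.64 and 2.26 in old cells (7.97-fold lower, adjusted p = 0.000187), and Wnt10b at 39.9, 7.92 and 9.43 in young and 1.66, 0.512 and 2.04 CPM in old cells (11.8-fold lower, adjusted p = 0.00236). Young replicate 1 was far above the other young libraries for Wnt10b, whereas the young libraries were close for Wnt10a, and the groups overlapped for neither. Lef1, the nuclear effector, fell with them. The receptor gene Fzd6 went the other way, from 0.739, 1.11 and 1.45 to 12.1, 22.3 and 11 CPM (13.4-fold higher, adjusted p = 0.000158), with no overlap.

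Extracellular adenosine is made from ATP by CD39 and CD73. Among 22 purine signalling genes 8 rose and 1 fell, with a median of 0.41 (2 and 0 without the block, 4 and 1 without the 24 March pair). The shares of all genes tested were 7.89% and 7.03%. Entpd1, which encodes CD39, was at 11, 26.8 and 26 CPM in young and 21.8, 53.7 and 48.5 in old cells. Replicate 1 was the lowest of each group and the groups overlapped, but each pair rose about alike (1.95-fold, adjusted p = 0.000623, and 0.313 without the block). Cd38, an ectoenzyme that consumes NAD, was at 198, 315 and 317 in young and 282, 415 and 409 CPM in old cells and rose 1.34-fold (adjusted p = 0.00708, and 0.583 without the block). Pnp, which breaks down purine nucleosides, was at 15.5, 31.5 and 37.5 in young and 10.6, 19.7 and 24.4 CPM in old cells and fell 1.54-fold (adjusted p = 0.00375, and 0.573 without the block).

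Enzymes that modify DNA and histones were called mostly as lower. Of 38 tested 10 fell and 1 rose, with a median of -0.22, where 7.03% of all genes tested fell and 7.89% rose. Falls outnumbered rises among all genes over 100 CPM as well, at 15.8% against 2.84%. Whether the level of the listed genes accounts for their falls was not tested. Without the block 1 fell, and 4 without the 24 March pair. Tet1, which oxidises methylated cytosine, was the gene that fell without the block, at 7.89, 5.44 and 6.26 CPM in young and 2.15, 2.15 and 2.8 in old cells (2.74-fold lower, adjusted p = 0.00375 with and 0.0186 without the block). Dnmt1, the maintenance DNA methyltransferase, was at 269, 205 and 252 in young and 177, 156 and 191 CPM in old cells, and its partner Uhrf1 at 50.4, 27.4 and 51.8 in young and 21.4, 20 and 29.7 CPM in old cells. In Dnmt1 all old libraries lay below all young ones, while in Uhrf1 old replicate 3 was above young replicate 2. They fell 1.38-fold and 1.78-fold (adjusted p = 0.00494 and 0.00533, and 0.335 and 0.264 without the block). Hdac7, a histone deacetylase, was at 577, 297 and 289.8 in young and 286, 183 and 212 CPM in old cells (1.65-fold lower, adjusted p = 0.00211, and 0.228 without the block). Of 44 DNA damage response and cell cycle inhibitor genes 7 fell and 3 rose, and 0 passed without the block. Trp53 was at 219, 153 and 156 CPM in young and 109, 120.2 and 114 in old cells, without overlap (1.52-fold lower, adjusted p = 0.00754, and 0.0865 without the block). Chek2, a checkpoint kinase, was at 38, 13.8 and 17.5 in young and 15.6, 6.5 and 10.8 CPM in old cells and fell 2.04-fold (adjusted p = 0.00193, and 0.291 without the block).

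Metabolic and housekeeping groups were near or under the background of 7.89% higher and 7.03% lower. Of 33 sterol and fatty acid synthesis genes 0 rose and 1 fell, of 26 glycolysis and glucose uptake genes 2 rose and 2 fell, and of 42 lysosome and autophagy genes, where rises were above it, 5 rose and 0 fell (0 and 0 without the block). The 218 solute carrier genes gave 21 higher and 20 lower, and the 310 Zfp zinc finger genes 23 higher and 14 lower. Without the block 4 solute carriers rose and 0 fell, and 6 Zfp genes rose and 1 fell. Slc39a4, a zinc importer, had the smallest p of the carriers, with 2.55, 1.63 and 1.45 CPM in young and 9.3, 11.8 and 9.89 in old cells (5.64-fold, adjusted p = 0.000908). Among 12 regulators of G protein signalling, which are no metabolic group, 3 rose and 2 fell, above the shares over all genes tested (1 and 1 without the block). Rgs18 was at 6.82, 11.3 and 13 in young and 1.17, 1.84 and 3.87 CPM in old cells (4.8-fold lower, adjusted p = 0.000266), and Rgs3 went from 7.97, 9.21 and 9.36 to 25.3, 26.5 and 19.3 CPM (2.66-fold higher, adjusted p = 0.00074). The groups did not overlap for either gene.

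**Figure D5:**
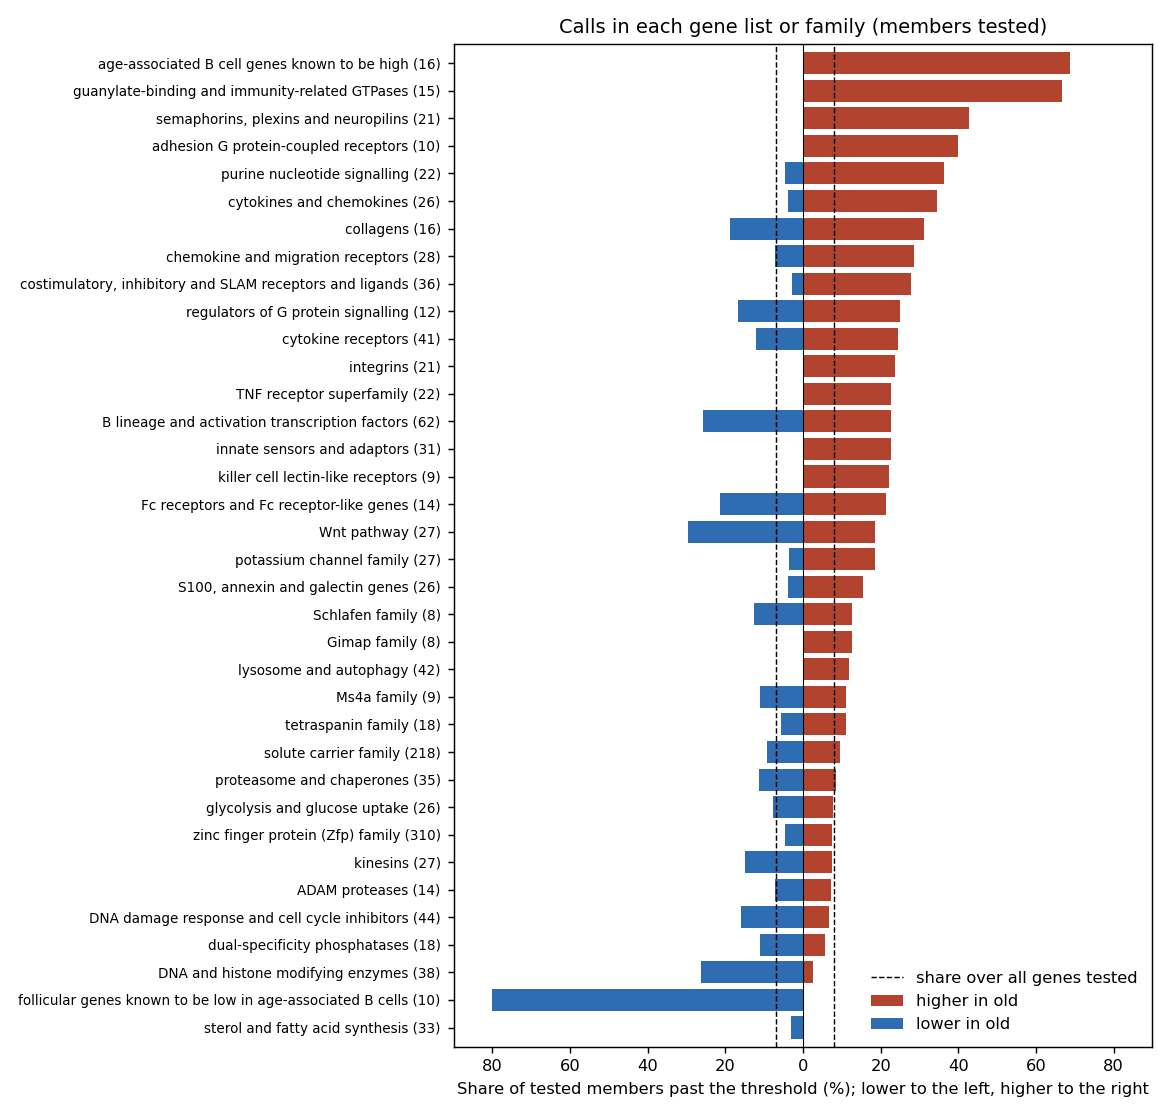
Share in percent of the tested members of each gene list or family (number in brackets on the y axis) that were called higher (red, to the right) or lower (blue, to the left) in old cells, with the date block. Dashed lines are the shares over all genes tested, 7.89% higher and 7.03% lower. Age-associated B cell genes and the GTPases lie farthest above the line for rises, and the follicular genes farthest beyond the line for falls.

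The Bak1-deficient mice offer a second contrast, between cells with Bax deleted and cells with Bax intact, which shares no library with the age contrast. The age effect differed from this genotype effect for 955 genes (7.03%) with the date block and for 34 without it. Of the 1073 genes higher with age, 346 had an age effect above the genotype effect by this test, and of the 955 lower genes 314 had one below it. The age calls and this test rest on the same age values, so genes called with age were bound to be over-represented here. The genes named next were also chosen by their age effect. These differences are therefore no separate evidence of a change particular to age. Bmf differed in sign, since it was higher in the Bax-deleted cells by 1.47 on the log2 scale and lower in old cells, a difference of -3.54 ± 0.13 (adjusted p = 1.28e-07). Fcamr (-3.10 ± 0.28, adjusted p = 0.000383), Nrp2 (3.57 ± 0.44, 0.00192), Ptprv (3.40 ± 0.24, 4.93e-05) and Zbtb32 (2.69 ± 0.21, 8.83e-05) also differed between the contrasts. Wnt10b, in contrast, had a genotype log2 fold change of -3.36 beside -3.56 for age, a difference of -0.20 ± 0.67 (adjusted p = 0.903). The differences for Nedd4 (-1.80 and -1.76, difference 0.04 ± 0.25, 0.946) and Tet1 (-1.43 and -1.45, difference -0.02 ± 0.36, 0.983) did not pass either, which does not show that the effects are equal.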

How the data were processed

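RNA of sorted mature B cells was sequenced in 12 libraries. Per the labels' protocols, polyadenylated RNA was extracted with a Qiagen kit and made into TruSeq v2 libraries. The authors deposited whole-number read counts per gene in 1 table with 1 column per library (0 columns not used). Subread, featureCounts and mm10 are named in the submitters' processing notes. No version, annotation or strand setting is stated in the sources used here, so reads of overlapping or antisense genes and of near-identical copies are uncertain. The table held 27179 genes by Entrez number, of which 6753 had 0 counts in every library. Symbols and coordinates came from RefSeq GRCm38.p6 for 25275 genes, and 408 of the genes tested had none.

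Groups, ages and dates were taken from the labels. Counts were scaled by TMM and filtered with filterByExpr (minimum count 10) in edgeR 4.0.16 under R 4.3.3. All 12 libraries, with total counts from 13474162 to 23539764, were fitted with edgeR's robust quasi-likelihood test by group and collection date, which left 4 residual degrees of freedom. Benjamini-Hochberg adjustment over 13592 genes gave the adjusted p, with a threshold of 0.05, and a value without another name is from this fit. Where an adjusted p without a block or a library is given, the same fit was run without that term or library. Old and young libraries of a number share a date in the labels, and their deviations from the group means correlated at 0.922, 0.827 and 0.753. April libraries of unlike number correlated as highly (0.828 and 0.738), so these values set the 24 March pair apart but do not show the pairing within April, which rests on the labels. Leaving out 1 library of a date removes its partner from the age contrast as well. Log2 fold changes are given ± SE, and a fold is 2 to the power of the fitted value. Whether a library came from 1 mouse or a pool is not stated. The p values of the blocked fit measure the spread left after group and date, over all 12 libraries, the Bak1-deficient ones included. They do not measure the spread between dates.

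Named genes were the 12 largest log2 rises and falls and the 6 largest gains and losses in CPM (among genes past the threshold with a mean of at least 10 CPM, the same sign in 3 pairs, and no predicted gene or antigen receptor segment), up to 4 members with the smallest p of each list, and markers. Exceptions are stated in the text. Members, lists and rules were chosen with earlier results of these data known. Alternatives were RLE scaling, DESeq2 1.42.0, no filter, a non-robust fit, wild-type libraries only, no block, and each library or date left out. The fit was also run on counts simulated from the date-block fit itself, with known folds put into some genes. That run takes the block as given, so it cannot show whether the block is right, and its outcome is not reported here.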

Additional observations from a re-analysis of the deposited data

How the results depend on the processing

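The replicate block by date decided the count of genes changed with age. With it 2028 genes passed (1073 higher, 955 lower), and without it 273 (231 and 42), while DESeq2 without the block called 700 (557 and 143). With the 6 wild-type libraries alone the blocked fit called 1276 (810 and 466), and without the block 1 (1 higher, 0 lower, with 1109 genes at an unadjusted p under 0.05). Without the replicate 1 date 925 passed (602 and 323) and without the replicate 2 date 1175 (590 and 585). Leaving out 1 library gave 921 to 1789 (576 to 878 higher, 327 to 911 lower). The age effect differed from the genotype effect for 955 genes (477 higher, 478 lower), for 34 without the block (24 and 10) and for 255 by DESeq2 without it (189 and 66). The fit without the replicate 2 date called 677 genes in this test, of which 273 were higher. The fit without the replicate 1 date called 647, of which 296 were lower. Leaving out 1 library gave 603 to 983 (267 to 466 higher and 258 to 517 lower). RLE scaling, DESeq2 with the block, no filter, a non-robust fit and merged April dates kept the age counts within 1.5 times. The merged dates and the list counts without the 24 March pair were chosen after seeing the data. Of the 93 named genes past the threshold, 75 passed without each single library in turn, 49 without the block and 67 by DESeq2 without it, and the cause was not tested. Gbp5 and Gbp9, which did not pass, were the named genes that changed sign. Gbp5 was at -0.10 on the log2 scale without the replicate 3 date and between -0.11 and 0.22 without 1 library. Gbp9 was at 0.00087 with the wild-type libraries alone, at 0.11 without the replicate 1 date, at 0.036 without the replicate 2 date and between -0.18 and 0.11 without 1 library. Low counts limit the weakest genes, since 1197 of the genes tested had a mean under 1 CPM.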

Other observations

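Further gene families are given here with their counts. Of 16 collagen genes tested 5 rose and 3 fell (1 and 1 without the block, against 7.89% and 7.03% of all genes with it). The family held 44 genes before the filter on low counts. A gene seen almost only in old libraries can pass this filter and could then be called only as a rise. Col1a1, a chain of the main fibrous collagen of bone, had 0, 0.257 and 0.264 CPM in young and 1.66, 2.2 and 4.78 in old cells. Each old library was above each young one, and the log2 fold change was 3.90 ± 0.63 (adjusted p = 0.00278, and 0.135 without the block). It is 1 of the stromal markers, and the part of stromal cells in this rise was not tested. Col27a1, a collagen of cartilage, went the other way, from 83.7, 27.7 and 21.4 to 28.1, 14.1 and 11.8 CPM (2.22-fold lower, adjusted p = 0.000623, and 0.253 without the block).

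Of 18 dual-specificity phosphatases, which switch off MAP kinases, 1 rose and 2 fell, near the shares over all genes tested, and 0 passed without the block. Dusp2, an early gene of lymphocyte activation, was at 624, 212 and 215 CPM in young and 219.7, 121 and 118 in old cells. Replicate 1 was the highest of both groups, the groups overlapped, and it fell 2.09-fold (adjusted p = 0.00143, and 0.526 without the block). Dusp4 was at 9.86, 17.3 and 18.7 in young and 20.3, 27.8 and 36.6 CPM in old cells and rose 1.86-fold (adjusted p = 0.00176, and 0.155 without the block). Of 8 Schlafen genes 1 rose and 1 fell, and 0 passed without the block. Slfn2, which keeps lymphocytes quiescent, was at 129, 231 and 232 CPM in young and 103, 155 and 146 in old cells and fell 1.44-fold (adjusted p = 0.00391, and 0.401 without the block). Of 10 adhesion G protein-coupled receptors 4 rose and 0 fell, with a median log2 fold change of 0.99, and of 26 S100, annexin and galectin genes 4 rose and 1 fell, with a median of 0.31. Before the filter on low counts there were 27 adhesion receptor genes, and the same limit on rises applies to them. Without the block 1 adhesion receptor and 0 S100, annexin or galectin genes passed. With the block 7.89% of all genes tested rose and 7.03% fell.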
